A study of Canis lupus familiaris with 6 samples.

Results

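The alpha-arrestins TXNIP, ARRDC1, ARRDC2, ARRDC3 and ARRDC4, and the glucose-sensing transcription factors MLXIP (MondoA), MLXIPL (ChREBP) and their partner MLX, were followed across 6 RNA-seq libraries of MDCK cells, a canine kidney epithelial line. These 8 genes were matched by symbol among 41401 symbols, and all 8 were found. They were chosen on measured values, namely the large rise of TXNIP after knockdown of PRL1 against control siRNA. The other members were added as its relatives and regulators. Their knockdown differences are therefore a description and support nothing further. Averaged over the libraries, 7 of the 8 members and 12125 symbols in all reached 1 FPKM or more, and ARRDC4 was the member that did not. FPKM counts the fragments of a gene relative to the length of its transcript and to the mapped fragments of the library, so levels of different genes can be set side by side.

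The lines were wild-type MDCK cells (labelled WT) and the clones labelled "PRL2-/-; PRL1+/- clone #1" and "clone #2", each of which received control siRNA or PRL1-siRNA. RNA was taken 18 h after the second of repeated transfections, which the control cells underwent as well, and each line gave 1 library per treatment. A mutant group is thus 2 libraries, 1 from each clone, and a wild-type group is 1 library. The labels say neither how the alleles were disrupted nor whether libraries came from separate cultures. Any p-value thus measures the spread between these samples, which may be technical. That spread comes from the 2 clones alone, except in the fit over all 3 lines together. The study's title links falling cellular magnesium to a form of cell death that depends on NF-κB.

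TXNIP is an alpha-arrestin that binds and inhibits thioredoxin and lowers glucose uptake by promoting the internalisation of glucose transporters. Its relatives ARRDC1 to ARRDC4 share the arrestin fold and carry short proline-rich motifs that recruit ubiquitin ligases of the NEDD4 family to membrane cargo. MondoA and ChREBP respond to glucose 6-phosphate, pair with MLX, and bind carbohydrate response elements. TXNIP and ARRDC4 are textbook targets of MondoA, and in kidney TXNIP is known for its induction by high glucose.

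PTP4A1, which encodes PRL1, the target of the siRNA, measured 63.5 FPKM with control siRNA in wild type, 61.7 in clone 1 and 69.9 in clone 2, against 33.1, 37.8 and 37.8 with PRL1-siRNA. Absolute depth is unknown, and low values put the other libraries at 0.765 to 0.914 times the wild-type control depth. All 8 epithelial markers were detected in every library (3.08 to 1290 FPKM). In the clones, limma with a clone term called 2 of the 8 higher after knockdown, CDH16 (log2 difference 0.88) and the keratin gene KRT19 (0.36). CDH16, a kidney cadherin gene, had 3.13 and 7.82 FPKM in clone 1 and 4.48 and 7.67 in clone 2. The 4 called lower were CDH1 (-0.16), EPCAM (-0.17), KRT18 (-0.27) and OCLN (-0.27). The median of the 8 was -0.14, and without the clone term 0 were called. With that term, 14.5% of all genes were called higher and 19.2% lower. Of the markers of other cell types, 0 of 5 leukocyte and 0 of 4 endothelial ones reached a mean of 1 FPKM. PTPRC and CD3E were listed at 0 throughout. The 6 fibroblast and smooth muscle markers summed to 0.275 to 1.72 FPKM in the control libraries and 0.421 to 4.07 after knockdown. The most abundant was ACTA2, smooth muscle actin, with 0.201 and 0.363 FPKM in wild type, 0.275 and 1.76 in clone 1, then 1.60 and 3.93 in clone 2, so that it reached a mean of 1 FPKM only through knockdown libraries, while COL1A1, COL1A2, PDGFRB, DCN and DES did not exceed 0.0766 FPKM. The part of these markers in the other results was not tested.

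TXNIP was low in every control library and higher in every knockdown library. It stood at 8.43 FPKM in the wild-type control library and 25.9 in the wild-type knockdown library. In clone 1 the control library had 5.995 FPKM and the knockdown library 95.6. In clone 2 it was at 11.0 and 165 FPKM. The lowest knockdown library, wild type, was thus above the highest control library, clone 2, and both mutant knockdown libraries were far above the wild-type one. In bulk RNA, a change in how many cells express a gene and a change in RNA per cell cannot be told apart.

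As ratios of FPKM, TXNIP was 3.08-fold higher after knockdown in wild type, 15.9-fold in clone 1 and 15.0-fold in clone 2. On the log2(FPKM + 1) scale these are differences of 1.51, 3.79 and 3.79, and over the clones TXNIP went from 8.52 ± 3.57 to 130.5 ± 49.3 FPKM (SD, n = 2 clones). Clone 2 was the higher clone in both states, and the step between the states was almost the same size in both clones. Among the 12125 genes, TXNIP had the 19th largest rise in wild type, the 6th in clone 1 and the 7th in clone 2.

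In the clones TXNIP went from the lower or middle range of expressed genes to near the top, and in wild type to the upper part of the range. In control libraries 29.7% to 46.9% of the 12125 genes lay below it. After knockdown 73.3% lay below it in wild type, 93.3% in clone 1 and 96.6% in clone 2. TXNIP has no overlapping gene in the RefSeq table (assembly UU_Cfam_GSD_1.0, used for names and neighbours only). Its nearest protein-coding neighbours, ANKRD34A and HJV, which were looked up after the values were seen, did not exceed 0.916 and 0.0126 FPKM in any library.

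**Figure D1:**
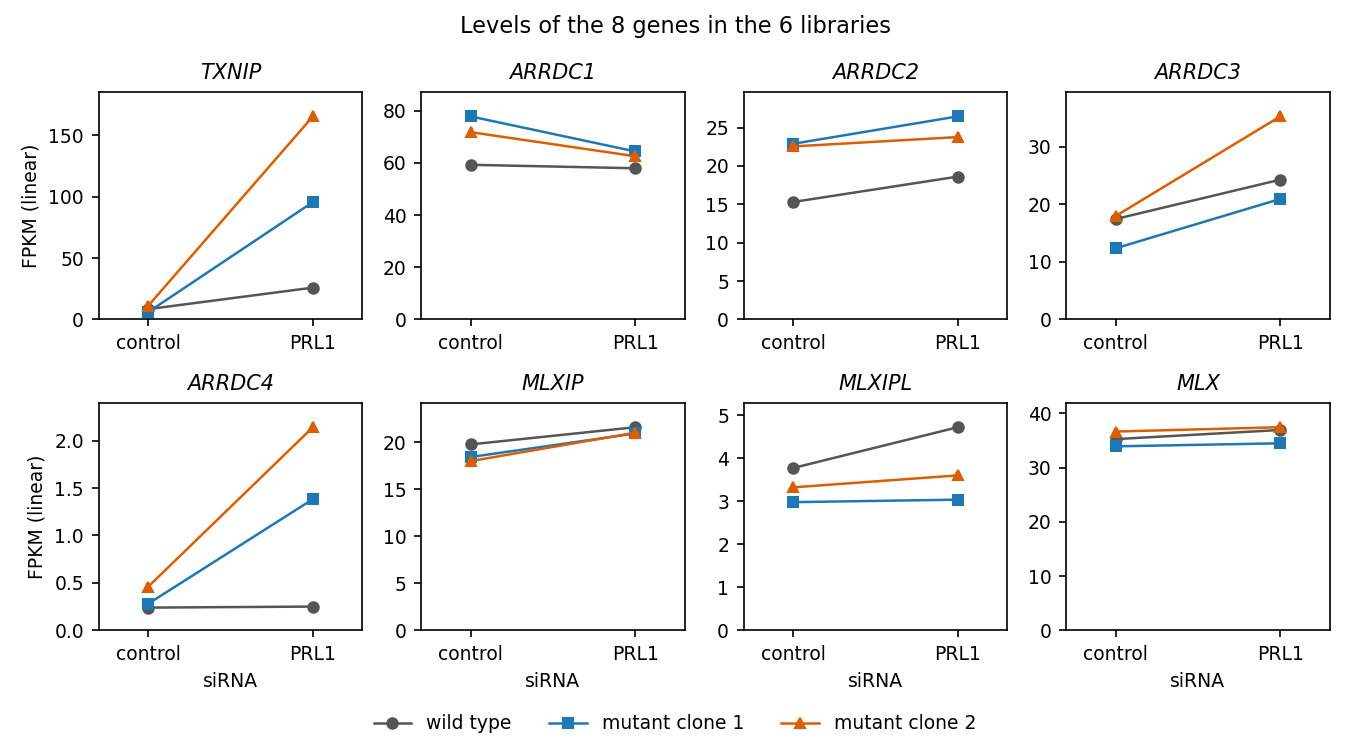
FPKM of each of the 8 genes (linear axes from 0, a scale of its own for each gene) under control and PRL1 siRNA, 1 point per library, with lines joining the libraries of the same cell line. TXNIP reached 95.6 and 165 FPKM in the mutant clones and 25.9 in wild type, and ARRDC4 was higher after knockdown in the clones (1.38 and 2.14 FPKM) but stood at 0.250 FPKM in wild type.

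ARRDC4, the alpha-arrestin closest to TXNIP in regulation and likewise a MondoA target that restrains glucose uptake, was scarce in MDCK cells. It was at 0.240 FPKM in the wild-type control library and 0.250 in the wild-type knockdown library. It was at 0.279 and 1.38 FPKM in clone 1, and at 0.459 and 2.14 FPKM in clone 2. Both mutant knockdown libraries exceeded every control library, and the wild-type knockdown library did not.

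The ratio of knockdown to control was 4.95 in clone 1 and 4.67 in clone 2, against 1.05 in wild type. On the log2(FPKM + 1) scale, which understates changes of low genes, the differences were 0.90, 1.11 and 0.01, and with a pseudocount of 0.1 they were 1.97, 2.00 and 0.05. With a mean of 0.792 FPKM the gene was outside the tests across genes, and the number of fragments behind its low values is unknown.

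ARRDC3, an alpha-arrestin known as an adaptor for the ubiquitination of receptors and as a regulator of energy expenditure, was the one relative of TXNIP with every knockdown library above every control library. Its control and knockdown libraries had 17.4 and 24.3 FPKM in wild type, 12.3 and 20.9 in clone 1, then 17.9 and 35.2 in clone 2. The knockdown libraries did not overlap the control libraries, although clone 1 after knockdown (20.9) was only a little above clone 2 under control siRNA (17.9). The ratios were 1.39, 1.69 and 1.96, and the rise ranked 515th of 12125 genes in wild type, 206th in clone 1 and 81st in clone 2. According to RefSeq, 2 unnamed loci overlap ARRDC3, and their values did not exceed 0.477 FPKM, against at least 12.3 for ARRDC3.

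ARRDC1 and ARRDC2 differed much less between treatments. ARRDC1, which recruits the budding machinery to the plasma membrane and releases small vesicles, was the most abundant alpha-arrestin in every control library. It was at 59.2 and 57.9 FPKM in wild type, 77.8 and 64.3 in clone 1, then 71.7 and 62.5 in clone 2, so it was lower after knockdown in each line, by a ratio of 0.978, 0.827 and 0.871. ARRDC2, whose known inducers include glucocorticoids, was at 15.3 and 18.6 FPKM in wild type, 22.9 and 26.5 in clone 1, then 22.5 and 23.8 in clone 2. Its ratios were 1.22, 1.16 and 1.05, and the control libraries of both clones lay above the wild-type knockdown library.

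The make-up of the family differed between treatments. ARRDC1 made up 58.0% to 65.2% of the summed FPKM of the 5 alpha-arrestins under control siRNA, and TXNIP 5.03% to 8.93%. After knockdown TXNIP made up 20.4% in wild type, 45.8% in clone 1 and 57.2% in clone 2. In wild type ARRDC1 remained the most abundant (45.6%), whereas in the clones TXNIP exceeded it, by 1.49-fold in clone 1 and 2.65-fold in clone 2. Without TXNIP the sum of the other 4 alpha-arrestins was 92.2 and 101 FPKM in wild type, 113.3 and 113.1 in clone 1, then 112.6 and 123.6 in clone 2.

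**Figure D2:**
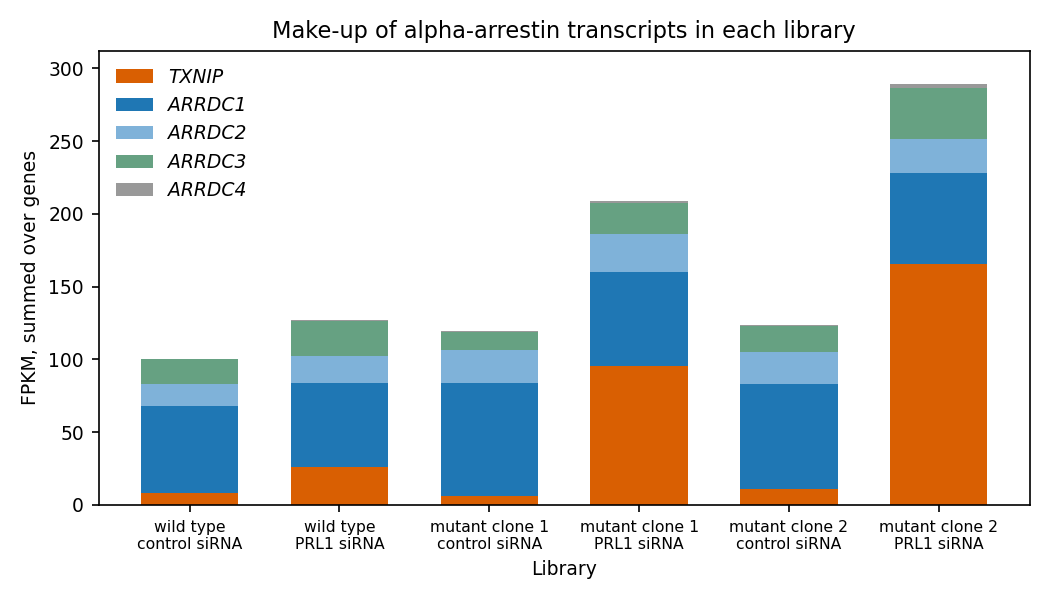
Summed FPKM (linear axis from 0) of the 5 alpha-arrestins in each of the 6 libraries, stacked by gene. The stacks reach 209 and 289 FPKM in the knockdown libraries of clones 1 and 2, of which TXNIP makes up 45.8% and 57.2%, and 101 to 127 FPKM in the other libraries.

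The 3 glucose-sensing factors differed less between treatments than TXNIP, which was chosen for its large rise. MLX, the shared partner, was the most abundant of the 3, at 35.3 and 37.0 FPKM in wild type, 33.9 and 34.5 in clone 1, then 36.7 and 37.5 in clone 2. MLXIP, which encodes MondoA, was at 19.8 and 21.6 FPKM in wild type, 18.4 and 20.9 in clone 1, then 17.9997 and 21.0 in clone 2. MLXIPL, which encodes ChREBP, the paralogue best known from liver, was the scarcest, at 3.77 and 4.72 FPKM in wild type, 2.98 and 3.04 in clone 1, then 3.32 and 3.60 in clone 2.

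All 3 were slightly higher after knockdown in each line, by ratios of 1.02 to 1.05 for MLX, 1.09 to 1.17 for MLXIP and 1.02 to 1.25 for MLXIPL. For MLXIP the knockdown libraries (20.9 to 21.6 FPKM) lay above the control libraries (17.9997 to 19.8), while those of MLX and MLXIPL overlapped. MLXIPL had its largest ratio in wild type and MLXIP in clone 2. MLXIP was 4.57 to 6.89 times as abundant as MLXIPL, and MLX 1.65 to 2.04 times as abundant as MLXIP. MLX overlaps PSMC3IP in the RefSeq table. No source used here gives the strand setting of the counting, and fragments of MLX and PSMC3IP (9.62 to 11.1 FPKM) may have been shared.

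**Figure D3:**
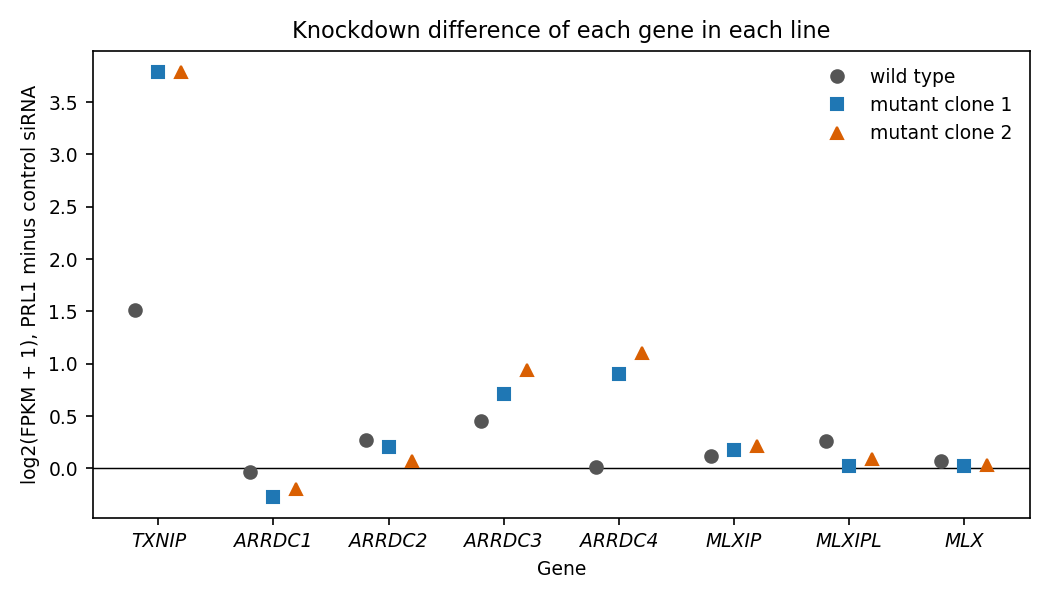
Difference in log2(FPKM + 1) between PRL1 and control siRNA for each of the 8 genes, 1 point per cell line (circle, wild type; square, clone 1; triangle, clone 2), with a line at 0. TXNIP lies at 1.51 in wild type and 3.79 in both clones, ARRDC4 at 0.01 in wild type and 0.90 and 1.11 in the clones, and the 3 factors lie between 0.02 and 0.26.

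Of the 7 members tested across all genes, every knockdown library was above every control library for 3 (TXNIP, ARRDC3 and MLXIP) and below for 0. Over all 12125 genes the same held for 12.6% and 16.2%. With limma on log2(FPKM + 1) and the clone as block, 3 of the 7 (TXNIP, ARRDC3 and MLXIP) lay past a Benjamini-Hochberg adjusted p of 0.05 on the higher side, 1 (ARRDC1) on the lower side and 3 within it. This fit called 14.5% of all genes higher and 19.2% lower. Over wild type and both clones together, ARRDC2 lay past 0.05 and ARRDC1 did not. With the clone as block but no intensity trend, MLXIP did not. Since the knockdown contrast chose the members, nothing is read from their count. Leaving the clone out of the limma model, 0 of the 12125 genes were called and the smallest adjusted p was 0.106, although 2575 had an unadjusted p under 0.05. Keeping the clone but dropping the filter on low values, limma called 0 of 27931 (smallest adjusted p, 0.159; unadjusted p under 0.05 for 6129).

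Under control siRNA the mutant clones did not stand apart from wild type in TXNIP. The wild-type control library (8.43 FPKM) lay between clone 1 (5.995) and clone 2 (11.0), and the fitted log2 difference between clones and wild type was -0.04 ± 0.49 (SE, limma over 4 groups without a clone term, adjusted p = 0.984). ARRDC2 had the largest difference of the members, 0.54 ± 0.09, its levels being 15.3 FPKM in wild type, 22.9 in clone 1 and 22.5 in clone 2, and did not pass (adjusted p = 0.253, unadjusted p = 0.00441). ARRDC1 was at 0.33 ± 0.08 (adjusted p = 0.298, unadjusted p = 0.0155). ARRDC3 (-0.21 ± 0.39), MLXIP (-0.11 ± 0.07), MLXIPL (-0.20 ± 0.14) and MLX (0.00031 ± 0.09) had adjusted p-values of 0.854, 0.539, 0.581 and 1. This limma fit called 0 of the 7 members and 0% of all genes, the smallest adjusted p being 0.0981, while 1632 genes had an unadjusted p under 0.05. The signs for TXNIP and ARRDC3 rest on clone 1: without its control library the differences were 0.35 and 0.04.

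The step in TXNIP was larger in the clones than in wild type by 2.27 on the log2(FPKM + 1) scale. The rises on which TXNIP was chosen make up this value, and wild type gave 1 library per treatment, so it is a description with no test. The steps in the clones were nearly equal (3.79 in both), whereas their levels were not. The standard error was 0.06 with the clone as block and 0.69 without it. With the block it mostly reflects the variance that limma takes from other genes, not the spread of TXNIP. MLX had the same standard error of 0.06 there. Across all genes, limma with the block called 0.00825% of 12125, which was TXNIP itself, and nothing is read from that call. Without the block it called 0, while 136 genes had an unadjusted p under 0.05. For ARRDC3 and ARRDC1 the same difference was 0.37 ± 0.11 and -0.20 ± 0.06 with the block, and 0.37 ± 0.55 and -0.20 ± 0.11 without it.

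Genes around TXNIP and MondoA were then read from 10 lists, with the members taken out. In these lists "rose" and "fell" mean that limma with the clone as block called the gene in the clones at an adjusted p under 0.05, where 14.5% of all genes rose and 19.2% fell and the median log2 difference over all genes was -0.01. In none of the 10 lists was a gene called without the block. The largest rise in the lists, that of SESN3, was 0.69 log2 units.

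Known carbohydrate response genes moved in both directions. Of 16 measured genes of 24 listed, 6 rose, 2 fell and 8 did not pass, at a median of 0.07. The largest rises were in KLF10, a transcription factor gene that ChREBP controls, and MID1IP1, an activator of fatty acid synthesis. KLF10 had 20.2 and 27.4 FPKM in clone 1, 20.3 and 31.4 in clone 2, and 13.2 and 15.7 in wild type (0.51 ± 0.06 in the clones, SE, adjusted p = 0.0103). MID1IP1 had 117 and 147 FPKM in clone 1 and 114 and 160 in clone 2 (0.40 ± 0.05, adjusted p = 0.0111). The genes that fell were FGF21, a secreted hormone that is a target of ChREBP and also of the stress factor ATF4, and SCD, the fatty acid desaturase. FGF21 had 10.6 and 4.00 FPKM in wild type, 8.85 and 1.33 in clone 1, then 6.82 and 1.29 in clone 2 (-1.92 ± 0.10 in the clones, adjusted p = 0.00609). SCD was at -0.42 ± 0.07 (adjusted p = 0.0216). PKLR, G6PC1, THRSP, GPD1, PNPLA3 and ACACB, mostly liver genes of the ChREBP programme, did not exceed 0.644 FPKM, and RGS16 was listed at 0.

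Thioredoxin genes were called in both directions, as were genes in general (14.5% of all genes rose and 19.2% fell). Of 23 measured genes of the thioredoxin and peroxiredoxin system, 4 rose, 6 fell and 13 did not pass, at a median of 0.01. TXN, the thioredoxin that TXNIP binds, was abundant, at 769 FPKM in the wild-type control library and 653 after knockdown, 1032 and 853 in clone 1, then 1038 and 853 in clone 2 (-0.28 ± 0.03, SE, adjusted p = 0.0112). It is named for its role and was not among the largest changes. The deepest falls were in TXNRD1, which reduces thioredoxin, with 129 and 77.8 FPKM in clone 1 and 120 and 82.4 in clone 2 (-0.63 ± 0.06, adjusted p = 0.00752), and in SRXN1, which repairs oxidised peroxiredoxins (-0.58 ± 0.05, adjusted p = 0.00735). The largest rises were in MSRB1, a methionine sulfoxide reductase (0.57 ± 0.04, adjusted p = 0.00635), and PRDX5, a peroxiredoxin (0.34 ± 0.03, adjusted p = 0.00809). In wild type TXNRD1 and SRXN1 were lower as well, at -0.71 and -0.49, and MSRB1 and PRDX5 higher, at 0.83 and 0.25.

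Among sugar transporters and glucose-phosphorylating enzymes, 3 of 11 measured genes rose, 1 fell and 7 did not pass, at a median of 0.14. The gene that fell was SLC2A1, which encodes GLUT1, the transporter that TXNIP is known to remove from the cell surface. It was by far the most abundant transporter. Clone 1 had 542 and 363 FPKM, clone 2 had 599 and 409, and wild type had 598 and 582 (-0.56 ± 0.03 in the clones, SE, adjusted p = 0.00635). The difference between the effects in clones and wild type was -0.52 ± 0.06 with the block and was not called (limma, adjusted p = 0.261). Of those that rose, the largest differences were in SLC2A8, which encodes the intracellular transporter GLUT8 (0.37 ± 0.06, adjusted p = 0.0183), and HK1, the housekeeping hexokinase (0.16 ± 0.03, adjusted p = 0.0328, and 0.0746 without an intensity trend). SLC2A6, a lysosomal transporter gene, had a larger difference that did not pass (0.63 ± 0.17, adjusted p = 0.0531). The number that rose was 5 with a pseudocount of 0.1 and 5 with each library set to the same upper quartile. Among the listed genes under 1 FPKM were SLC2A2, which was listed at 0, and the sodium-glucose transporters SLC5A1 and SLC5A2, which did not exceed 0.0895 FPKM.

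The ubiquitin ligases that alpha-arrestins recruit were read together with their adaptors, beside 14.5% of all genes that rose and 19.2% that fell. Of 11 measured NEDD4 family ligases and adaptors, 1 rose, 2 fell and 8 did not pass, at a median of 0.06. NEDD4L, which controls renal sodium channels, fell by 0.32 ± 0.03 (SE, adjusted p = 0.00944) and SMURF2 fell by 0.22 ± 0.05 (adjusted p = 0.0361), whereas the adaptor gene NDFIP2 rose by 0.22 ± 0.04 (adjusted p = 0.0184). With upper quartile scaling 3 rose and 1 fell.

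The rest of the arrestin fold was mostly silent or steady. ARRDC5, the remaining alpha-arrestin, did not exceed 0.246 FPKM, and of the beta-arrestins ARRB1 did not exceed 0.0225 FPKM. ARRB2 was at 5.39 to 7.09 FPKM and did not pass (-0.17 ± 0.10, SE, paired limma fit, adjusted p = 0.242). Of 4 measured genes of this group 1 rose, VPS26A, a retromer subunit with an arrestin fold (0.16 ± 0.04, adjusted p = 0.0356), and it was not called without an intensity trend.

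The MYC and MAX network holds the factors that share E-box sites and partners with MondoA and MLX. Of 9 measured genes 2 rose, 2 fell and 5 did not pass, at a median of 0.07. MYC itself had 32.9 and 21.3 FPKM in wild type, 50.7 and 35.1 in clone 1, then 64.2 and 45.2 in clone 2 (-0.51 ± 0.03 in the clones, SE, adjusted p = 0.00635). MGA, a MAX-binding repressor, fell by 0.20 ± 0.05 (adjusted p = 0.0485). MXD1 and MNT, MAX partners that oppose MYC and can also pair with MLX, rose by 0.51 ± 0.09 and 0.22 ± 0.05 (adjusted p = 0.0201 and 0.0292).

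AMPK phosphorylates TXNIP and marks it for degradation. Of 8 measured AMPK subunits and upstream kinases 2 rose, 1 fell and 5 did not pass, at a median of 0.07. The catalytic subunit genes went opposite ways, PRKAA1 rising by 0.20 ± 0.04 and PRKAA2 falling by 0.39 ± 0.07 (SE, adjusted p = 0.0231 and 0.022), and the regulatory subunit gene PRKAG1 rose by 0.24 ± 0.04 (adjusted p = 0.0206). PRKAA1 was at 23.7 to 29.3 FPKM and PRKAA2 at 2.27 to 4.65 FPKM. Over wild type and both clones together, PRKAA1 and PRKAG1 did not pass (limma, adjusted p = 0.0578 and 0.0766). The 1 gene that rose there was CAMKK2, an upstream kinase gene (0.15 ± 0.04, adjusted p = 0.04). It did not pass in the clones alone (limma with the block, adjusted p = 0.0783).

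TXNIP is also known as a partner of the NLRP3 inflammasome. NLRP3 was listed at 0 in every library, and PYCARD, IL1B and IL18 did not exceed 0.223 FPKM. The 2 measured genes of that list, GSDMD (46.3 to 56.8 FPKM) and NEK7 (13.0 to 18.9 FPKM), did not pass (paired limma fit, adjusted p = 0.236 and 0.0787).

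Glucocorticoids and FOXO factors are further known inducers of TXNIP or ARRDC2. Of 7 measured glucocorticoid-responsive genes 3 rose, 1 fell and 3 did not pass, at a median of 0.27. NR3C1, the receptor gene, rose by 0.65 ± 0.12 (SE, adjusted p = 0.0245), having 4.95 and 6.98 FPKM in clone 1 and 3.07 and 6.44 in clone 2, and SGK1, a kinase of sodium transport, rose by 0.33 ± 0.04 (adjusted p = 0.0105). TSC22D3, which encodes the anti-inflammatory protein GILZ, was the third: it rose by 0.27 ± 0.06 in the clones (adjusted p = 0.0395) but had 11.6 and 8.71 FPKM in wild type, and it was not called over all 3 lines (adjusted p = 0.788). The median of the list in wild type was 0.08. ERRFI1, a feedback inhibitor of the EGF receptor, fell by 0.51 ± 0.05 (adjusted p = 0.00794). The genes that did not pass were DUSP1 (0.33), PER1 (0.19) and FKBP5 (-0.06), with adjusted p-values of 0.118, 0.0551 and 0.421 in the same limma fit. Of 10 measured FOXO factors and targets 1 rose, 3 fell and 6 did not pass, at a median of 0.07. SESN3, a stress-responsive inhibitor of mTORC1, rose by 0.69 ± 0.08 (adjusted p = 0.0101), while IRS2, an insulin receptor adaptor, and CCNG2, an atypical cyclin, fell by 0.44 ± 0.11 and 0.25 ± 0.06 (adjusted p = 0.0464 and 0.0461), IRS2 being at 0.10 in wild type. With upper quartile scaling 3 of the FOXO list rose and 0 fell.

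**Figure D4:**
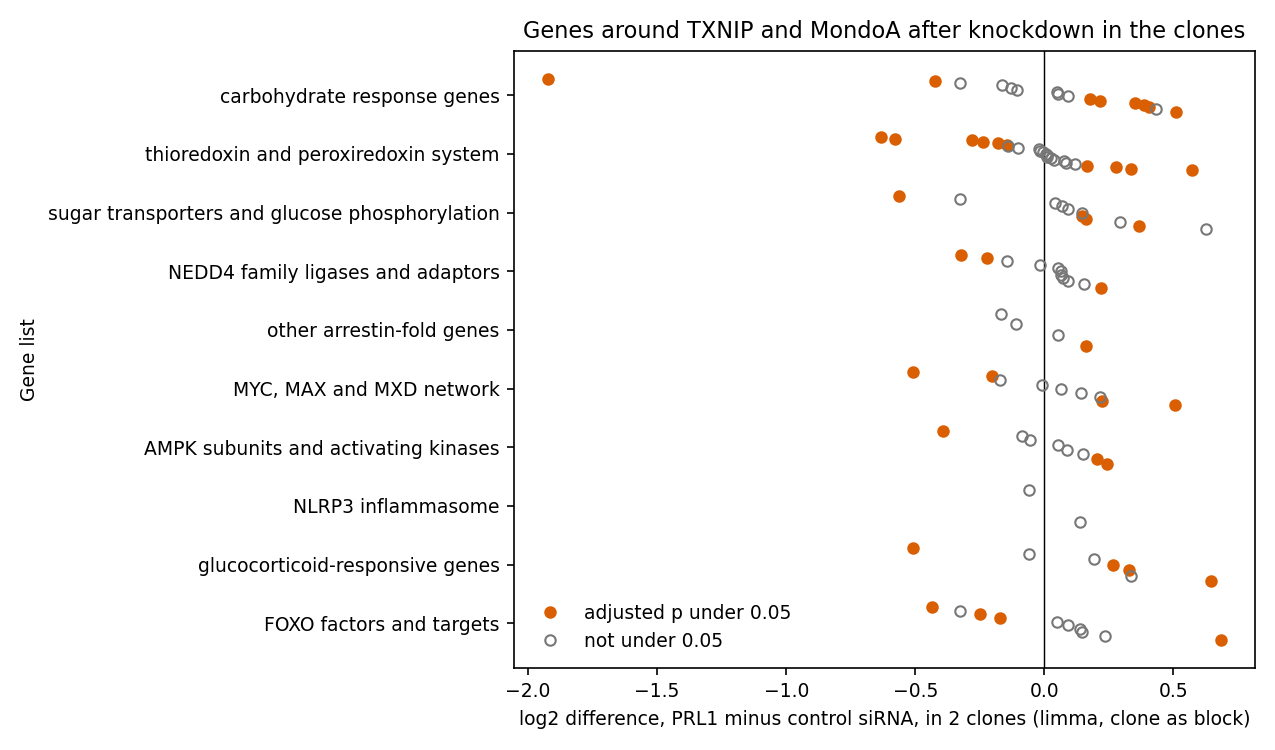
Log2 difference between PRL1 and control siRNA in the 2 clones (limma with the clone as block) for each measured gene of the 10 lists, 1 point per gene, filled where the adjusted p was under 0.05. Points lie on both sides of 0 in every list, the lowest being FGF21 at -1.92 and the highest SESN3 at 0.69, against 3.79 for TXNIP.

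The genes whose course over the 6 libraries was most like that of TXNIP were EVI5L, CCL7, IL6, CASTOR1 and IL34. Likeness was Pearson's r of log2(FPKM + 1) over the 6 libraries, among 939 genes other than the members with a RefSeq symbol and a range of at least 1 log2 unit, and it was 0.988, 0.977, 0.976, 0.975 and 0.974 in that order. With 6 libraries from 3 lines, these values are a description. Of the 5 genes, 2 stayed among the first 5 with a pseudocount of 0.1 (EVI5L and CASTOR1) and 2 with a mean of at least 5 FPKM (CCL7 and CASTOR1), and IL6 reached a mean of 1 FPKM only through knockdown libraries. CCL7, a monocyte chemokine, was at 1.02 and 4.49 FPKM in wild type, 1.34 and 12.5 in clone 1, then 3.00 and 14.2 in clone 2. IL6, an inflammatory cytokine, was at 0.248 and 0.972, 0.0939 and 2.55, and 0.825 and 5.27 FPKM. CASTOR1, which encodes the arginine sensor of the mTORC1 pathway, was at 3.90 and 8.16, 4.67 and 12.0, and 6.14 and 17.8 FPKM.

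IL34, a ligand of the CSF1 receptor, was at 1.54 and 3.27 FPKM in wild type, 1.97 and 7.12 in clone 1, then 2.86 and 8.34 in clone 2, and EVI5L, a regulator of small GTPases, at 2.38 and 3.96, 2.32 and 5.05, and 2.97 and 6.24 FPKM. Each of the 5 had its highest level in the clone 2 knockdown library, as TXNIP did, which largely follows from how they were picked. Their ratios of knockdown to control were 1.67 to 4.42 in wild type. Among the members, ARRDC3 had an r of 0.857 with TXNIP, MLXIP 0.724, ARRDC2 0.53, MLX 0.396, MLXIPL 0.045 and ARRDC1 -0.413. No minimum range was asked of the members. Of these only ARRDC3 spanned at least 1 log2 unit (1.44). The others spanned 0.14 (MLX) to 0.75 (ARRDC2), with MLXIP at 0.25, so their r is not comparable with that of the 5 genes.

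**Figure D5:**
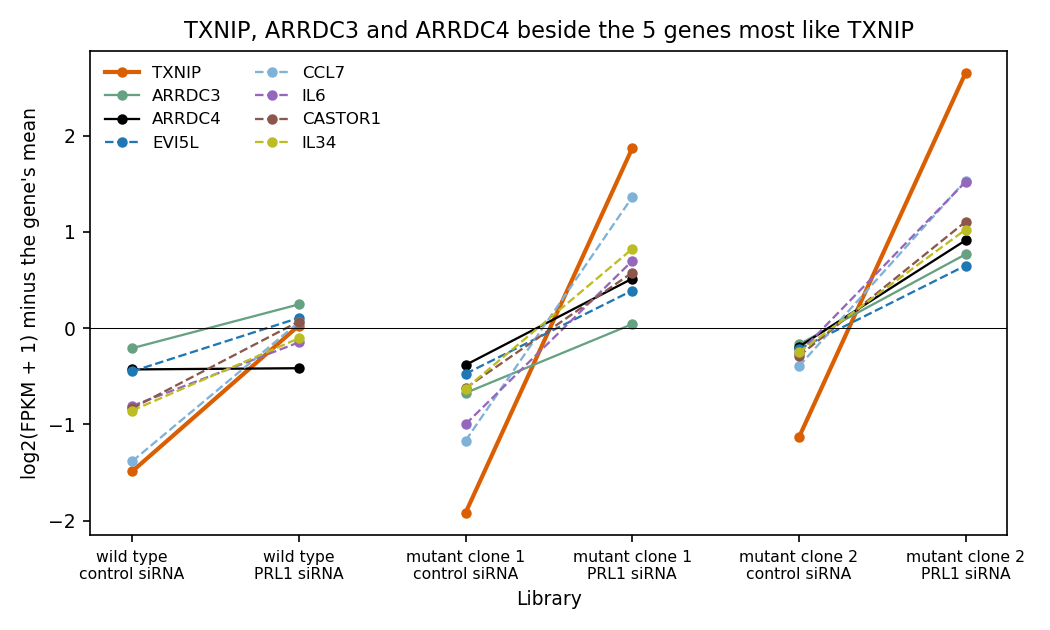
Log2(FPKM + 1) minus each gene's mean over the 6 libraries for TXNIP, ARRDC3 and ARRDC4 (solid lines) and for the 5 genes most like TXNIP (dashed lines), with lines joining the control and knockdown libraries of a cell line. TXNIP spans 4.57 log2 units from its lowest library, the clone 1 control, to its highest, the clone 2 knockdown.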

How the data were processed

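Transcripts were measured in 6 libraries, prepared with miRNeasy columns and a TruSeq stranded mRNA kit, per the labels' protocols. The deposited values are FPKM, per the file headers, 1 per symbol and library. HISAT2 2.1.0, Cufflinks 2.2.1 and Cuffdiff are listed per the submitters' processing notes. For build, annotation and strand setting the sources used here give nothing, and coordinates are left out. Of 41401 symbols, 38797 matched a RefSeq name. FPKM of a gene does not give whole fragments, so no count model was run. Relative depth is the inverse of the commonest ratio of a library's values below 0.1 FPKM to those of the wild-type control library.

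The 12125 genes averaging 1 FPKM or more were tested on log2(FPKM + 1) by limma 3.58.1 (R 4.3.3), with an intensity trend, two-sided, with Benjamini-Hochberg adjustment over all of them at 0.05. The fit had 4 groups and 2 residual degrees of freedom (prior 1.95), and takes the spread of the single wild-type libraries from the mutant ones. The fit with the clone as replicate block, which has 1 residual degree of freedom (prior 3.23), stands beside it, because same-numbered libraries come from the same clone (deviations from group means correlated at 0.595 across genes). The procedure was tested on simulated data with the same knockdown effect in every line, which cannot show how far the calls here hold.

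The members and lists were chosen with earlier results of these data known. Genes named were the members, PTP4A1, the remaining arrestins, up to 2 called genes per direction and list (or the 2 most abundant where none was called), and the 5 genes most like TXNIP. TXN, TSC22D3, DUSP1, PER1, FKBP5, SLC2A6 and CAMKK2 were named beyond that rule. So were marker genes, overlapping and neighbouring genes and genes given only for their low level. CASP1, SLC2A5 and HBB were not analysed here. Alternatives were other pseudocounts, filters, scaling, variance models, the block and leaving out libraries.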

Additional observations from a re-analysis of the deposited data

Results flagged for a closer look

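TXNIP was marked because its knockdown effect differed between the mutant clones and wild type by 2.27 on the log2(FPKM + 1) scale in the paired fit, with steps of 3.79 in both clones and 1.51 in wild type. Those rises chose the gene and wild type gave 1 library per treatment, so the value is a description. IRS2 was marked because wild type moved by 0.10 after knockdown while clone 1 and clone 2 moved by -0.27 and -0.61. That opposite direction was picked without a test; fitted across all genes, the difference between the IRS2 effects was -0.54 ± 0.19 in the paired fit (SE, limma, adjusted p = 0.483) and was not called. TSC22D3 was marked likewise, at -0.37 in wild type against 0.18 and 0.35 in the clones; that direction was picked without a test, and the paired difference of 0.64 ± 0.11 was not called (SE, limma, adjusted p = 0.428).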

How the results depend on the processing

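Without the clone as replicate block, 0 genes were called for the knockdown in clones under all 9 alternatives run. The paired fit called 4092, and 4211 with a pseudocount of 0.1, 4019 with a mean of at least 5 FPKM, 3035 without an intensity trend, 4177 with upper quartile scaling and 4762 over 3 lines. With no filter it called 0. For clones against wild type, 165 genes were called with no filter and 4 without an intensity trend, none of them members. For the difference between knockdown effects, the unpaired fit called 157 and 4 under the same settings, none of them members. The paired fit called 1, then 2 with a pseudocount of 0.1 and 3 with a mean of at least 5 FPKM. It called 7 without an intensity trend, 1 with upper quartile scaling and 0 with no filter. TXNIP was among the genes called except with no filter. The rises on which TXNIP was chosen make up that difference, and wild type gave 1 library per treatment. Nothing is read from its calls in these settings. Why the counts differed between settings was not tested. Leaving out 1 library with the block leaves no residual degree of freedom and was not run.

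Differences between clones and wild type that changed sign without being called were those of TXNIP (-0.43 to 0.35 over the left-out libraries), ARRDC3 (-0.47 to 0.0393) and MLX (-0.054 to 0.0546, and -0.0614 with upper quartile scaling). After knockdown in clones, GSDMD ranged from -0.1264 to 0.0093 and NEK7 from -0.0252 to 0.3052 over the left-out libraries. Of the 5 genes most like TXNIP, 2 were shared with a pseudocount of 0.1, 4 with upper quartile scaling and 2 with a mean of at least 5 FPKM, settings added after the data were seen. Low genes such as ARRDC4 are limited by an unknown number of fragments.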
